A study of Mus musculus with 20 samples.

Results

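The circadian clock genes described here are 10 genes of the feedback loop that times daily rhythms in mammalian cells: Arntl (whose protein is BMAL1), Clock, Npas2, Per1, Per2, Per3, Cry1, Nr1d1, Nr1d2 and Dbp. They were chosen by name, and each was represented by the brightest of the probe sets that carry its symbol alone. They are 10 of the 18193 genes with such a probe set on an Affymetrix mouse array, read in liver RNA of 20 male mice aged 50 to 60 days. A gene was tested if it exceeded 16 intensity units on at least 5 of the 20 arrays, and 7 of the 10 were among the 8774 genes tested.

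The mice were wild type (labelled Control) or lacked MCAD, medium-chain acyl-CoA dehydrogenase, an enzyme of mitochondrial fatty acid oxidation encoded by Acadm. All were of a mixed BL6/SV129 background. The injection was vehicle or LPS (lipopolysaccharide), a component of bacterial outer membranes that provokes acute inflammation, at 100 µg per 20 g body weight. Every mouse was then fasted for 12 h before the liver was taken, and each of the 4 groups held 5 biological replicates. The sources used here do not say how the MCAD-/- allele was made, whether the mice were littermates, or at which clock hour they were injected and dissected. Thus each group was sampled at a time of day that is unknown here, and no rhythm, amplitude or phase can be read from these arrays.

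In this loop BMAL1 pairs with CLOCK, or with the related NPAS2, and the pair binds E-box sequences to activate transcription. The PER and CRY proteins are made in response and return to inhibit that pair. The nuclear receptors REV-ERBα (Nr1d1) and REV-ERBβ (Nr1d2) repress Arntl and compete with ROR receptors for the same DNA element. DBP, the albumin D-box binding protein, is a transcription factor driven directly by the clock, and with its relatives TEF and HLF it binds D-box sequences, where NFIL3 acts in opposition. In liver this clock times bile acid, lipid and drug metabolism, and feeding, fasting and glucocorticoids can reset it.

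Per1, Cry1 and Per3 carry these elements in the DNA just before a start of transcription. The 250 bases before that start are printed for them because each of the 3 genes changed in at least 1 comparison below. The sequences are RefSeq's for GRCm38.p6, read 5′ to 3′ on the gene's own strand, with the element in capitals: the E-box CACGTG in Per1 and Cry1, and the D-box TTATGTAA in Per3.
Per1: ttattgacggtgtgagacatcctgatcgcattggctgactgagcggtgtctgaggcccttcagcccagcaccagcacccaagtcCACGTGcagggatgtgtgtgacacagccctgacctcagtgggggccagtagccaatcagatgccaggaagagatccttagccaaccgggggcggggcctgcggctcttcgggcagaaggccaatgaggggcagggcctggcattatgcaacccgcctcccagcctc
Cry1: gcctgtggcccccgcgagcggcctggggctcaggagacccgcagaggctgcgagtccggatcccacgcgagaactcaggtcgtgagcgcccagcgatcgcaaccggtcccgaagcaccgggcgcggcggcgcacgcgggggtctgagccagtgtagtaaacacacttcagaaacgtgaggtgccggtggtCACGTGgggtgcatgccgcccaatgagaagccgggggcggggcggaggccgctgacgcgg
Per3: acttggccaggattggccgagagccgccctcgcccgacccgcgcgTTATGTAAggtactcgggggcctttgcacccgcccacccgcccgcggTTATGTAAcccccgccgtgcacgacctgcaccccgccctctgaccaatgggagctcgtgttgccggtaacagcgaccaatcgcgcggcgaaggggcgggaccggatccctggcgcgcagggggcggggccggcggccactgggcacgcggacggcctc
The Per1 stretch is chr11:69098699-69098948 on the plus strand, before a start inside the annotated gene (chr11:69095108-69109965), and its E-box begins 166 bases before that start. The Cry1 stretch is chr10:85185055-85185304 on the minus strand, with its E-box 60 bases before the start. The Per3 stretch is chr4:151044666-151044915 on the minus strand and holds the D-box at 205 and at 158 bases before the start.

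Windows from 250 bases before to 50 bases after a start were found for 9 of the 10 members (all but Per2), as 13 windows. The perfect E-box CACGTG, which reads the same on both strands, was in 1 of the 2 Per1 windows and in the Cry1 window, against 7.15% of all 32851 windows. The D-box TTATGTAA, searched on both strands, was in the Per3 window alone among the members, against 0.938% of all windows. The core of the ROR element, AGGTCA on either strand, was in windows of Arntl, Clock, Nr1d2 and the same Per1 window, against 16.3% of all windows. The cAMP response element TGACGTCA was in no member's window, against 1.79% of all. These 4 motifs do not overlap one another in the members' windows, and a match describes letters in a window, not a factor bound there.

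Facts that bear on all genes are few. The arrays were alike in coverage, with 30.3 to 32.4% of probe sets above 16 units. Acadm read 3106 to 4022 units in wild type with vehicle and 1450 to 2375 with LPS, against 9.03 to 80.2 and 14.3 to 218 units in the MCAD-/- groups, in the direction of the genotype labels. In the log2 ratio of 3′ to 5′ actin probes, a sign of RNA quality, wild-type vehicle mouse 3 (3.18) and wild-type LPS mouse 4 (3.69) stood above the other 18 arrays, which ran from 1.35 to 2.34. Hepatocyte markers (7 measured of 8 listed) summed to 87032 to 91288 units in wild type with vehicle, 73386 to 77541 with LPS, 90658 to 96983 in MCAD-/- with vehicle and 76124 to 79767 with LPS. Markers of T and NK cells, B cells and cholangiocytes gave no tested gene.

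LPS moved most of the measured clock genes in both genotypes, while between genotypes Per1 alone passed the test. In wild type, LPS changed 5 of the 7 tested members at an adjusted p under 0.05 by limma: Per1 and Per2 rose, and Per3, Nr1d2 and Dbp fell. In MCAD-/- mice all 7 tested members changed: Clock, Per1 and Per2 rose, and Per3, Cry1, Nr1d2 and Dbp fell. The same test called 64% of all tested genes in wild type (40.0% higher, 24.0% lower) and 65.7% in MCAD-/- (38.1% higher, 27.6% lower), so a changed clock gene was a common event under LPS. Per3 passed the filter only through the vehicle groups, where it is high, so its place among the tested genes is no support for its fall.

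Between the genotypes, 1 of the 7 tested members differed with vehicle and 1 with LPS, Per1 in both cases, and it was higher in MCAD-/- mice. The background was 16.2% of tested genes with vehicle (9.81% higher, 6.39% lower) and 20.6% with LPS (8.75% higher, 11.8% lower). The LPS response itself differed between genotypes for 0 of the 7 members by limma's interaction term, against 4.11% of tested genes (1.36% higher, 2.76% lower). At an unadjusted p under 0.05 limma's interaction term held 2 members, Cry1 (unadjusted p = 0.0125) and Dbp (unadjusted p = 0.0321). The genotype comparisons use the same mice as the LPS comparisons, so their values are given side by side and not as independent evidence.

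The median log2 change of the 7 tested members was 0.03 for LPS in wild type, against 0.18 over all tested genes, and -0.35 in MCAD-/-, against 0.14. It was 0.28 between genotypes with vehicle, against 0.04, and 0.09 with LPS, against -0.03. For the interaction the members' median was -0.03 and that of all genes -0.07. Without both arrays of high actin ratio, an alternative added after the data were seen, the counts were 1 and 1 between genotypes, 4 for LPS in wild type (Clock and Per2 higher, Per3 and Dbp lower), 7 for LPS in MCAD-/- and 0 for the interaction.

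**Figure D1:**
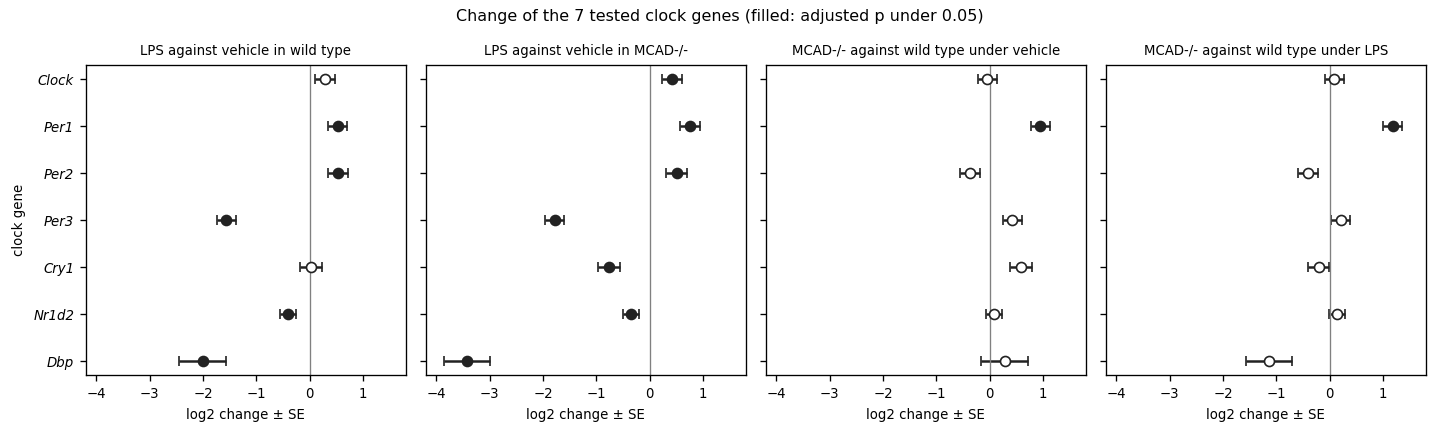
Log2 change with its standard error (horizontal axis) of the 7 tested clock genes (vertical axis) in 4 comparisons of 5 against 5 mice, filled where limma's adjusted p was under 0.05. Per1 lies to the right of 0 in every panel, and Dbp has the largest fitted LPS decrease of these 7 genes (Per3's is only a bound), -2.01 in wild type and -3.43 in MCAD-/-.

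The activators were mostly at the edge of what this array measured. Clock, the histone acetyltransferase partner of BMAL1, read 71.1, 103, 124, 88.0 and 102 units in wild type with vehicle and 132, 120.4, 103, 79.7 and 170.4 with LPS. MCAD-/- mice read 98.6, 73.6, 93.8, 90.1 and 115 units with vehicle and 130.0, 154, 121, 127 and 98.4 with LPS. The 4 groups overlap, and the LPS groups reach higher. The log2 change with LPS was 0.29 ± 0.18 (SE, adjusted p = 0.174) in wild type and 0.42 ± 0.18 (adjusted p = 0.0498) in MCAD-/-, a 1.34-fold rise. That rise was lost on leaving out any of 14 of the 20 mice in turn (adjusted p 0.0537 to 0.133), namely vehicle 2, 4 and 5 and LPS 1 to 3 of wild type and 1 to 4 of both MCAD-/- groups. On the same contrast the 3 other Clock probe sets changed by -0.19, -0.06 and 0.08, none of them called. In wild type the change passed the threshold without LPS mouse 4 (0.43, adjusted p = 0.0382), without both arrays of high actin ratio (0.52, adjusted p = 0.0142) and with array weights (0.36, adjusted p = 0.0407).

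Arntl stood above 16 units on 2 of 20 arrays and Npas2 on 0, so neither was tested. Arntl read 4.67 to 7.29 units in wild type with vehicle, 5.59 to 18.0 with LPS, 4.54 to 12.4 in MCAD-/- with vehicle and 7.82 to 16.8 with LPS. Its higher readings were thus mostly in LPS mice, near the floor of the measurement. With the filter removed and all 18193 genes tested, the log2 change of Arntl with LPS was 0.76 (adjusted p = 0.0378) in wild type and 0.55 (adjusted p = 0.133) in MCAD-/-. Npas2 stayed between 2.49 and 5.27 units over all 20 mice, and no comparison called it without the filter.

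The period genes, whose proteins carry CRY into the inhibitory complex, did not move as a block. Per1 is also an immediate early gene, induced by cAMP signalling and by glucocorticoids. In wild-type mice it read 29.1, 28.7, 16.7, 27.4 and 28.4 units with vehicle and 41.6, 24.4, 33.1, 51.1 and 38.9 with LPS. The MCAD-/- readings were 47.5, 62.4, 38.3, 50.9 and 50.6 units with vehicle and 89.4, 80.4, 85.5, 73.4 and 89.5 with LPS. With vehicle, every MCAD-/- mouse stood above every wild-type mouse, and the same held with LPS. The lowest MCAD-/- LPS mouse also stood above the highest MCAD-/- vehicle mouse, whereas the wild-type LPS mice overlapped the wild-type vehicle mice in 1 animal.

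Per1 was 1.93-fold higher in MCAD-/- than in wild type with vehicle (log2 0.95 ± 0.18, adjusted p = 0.00101) and 2.27-fold higher with LPS (1.18 ± 0.18, adjusted p = 9.14e-05). LPS raised it 1.44-fold in wild type (0.52 ± 0.18, adjusted p = 0.0161) and 1.69-fold in MCAD-/- (0.76 ± 0.18, adjusted p = 0.0011). The genotype difference in the LPS response was 0.23 ± 0.26 (adjusted p = 0.662). Only 1 probe set carried Per1's symbol alone, so no second probe set could be read beside it. Its wild-type vehicle readings, 16.7 to 29.1 units, lay near the 16-unit floor. In order of mean level the groups ran from wild type with vehicle (25.6 units) through wild type with LPS (36.7) and MCAD-/- with vehicle (49.3) to MCAD-/- with LPS (83.4). The middle groups overlap, at 24.4 to 51.1 and 38.3 to 62.4 units, and the contrast between them was not among the 5 comparisons run. The wild-type LPS rise was lost without vehicle mouse 3 (0.37, adjusted p = 0.0565) or LPS mouse 4 (0.40, adjusted p = 0.0552), the arrays with the high actin ratios, while Per1 stayed higher in MCAD-/- with vehicle without the first of them (0.80, adjusted p = 0.00243) and with LPS without the second (1.30, adjusted p = 3.8e-05). Without both, the wild-type LPS change was 0.25 (adjusted p = 0.159), and the rise was lost too under further quantile normalization (0.33, adjusted p = 0.113) and with array weights (0.28, adjusted p = 0.084).

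In bulk liver, fewer cells of a type and less RNA per cell cannot be told apart, and marker genes of nonparenchymal cells moved with the same comparison. With vehicle, 6 of 7 tested endothelial markers were higher in MCAD-/- than in wild type (summed level 1250 to 1753 against 409 to 838 units). Pecam1 was above 16 units in neither group, and Cdh5, 1 of the 6, in no wild-type vehicle mouse. Also higher were 6 of 9 macrophage markers (1692 to 2402 against 937 to 1721 units, with Marco above 16 units in neither). Of 6 tested stellate markers 4 were higher (1939 to 2248 against 1066 to 1863 units, with Col1a1 and Des above 16 units in neither). Of all tested genes, 9.81% were higher with vehicle, and with LPS 8.75% were higher and 11.8% lower. With LPS the picture was different: 0 endothelial markers were higher and 1 lower, 0 of 9 macrophage markers and 0 stellate markers were higher with 2 lower, and the endothelial sums overlapped at 526 to 974 in MCAD-/- and 672 to 1171 in wild type. Per1 differed between genotypes in both settings, and the part of these cells in it was not tested.

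Per2 rose with LPS too, but its genotype difference pointed the other way and did not pass the test. It read 60.4, 67.1, 55.4, 60.4 and 66.9 units in wild type with vehicle and 113, 103, 65.5, 77.0 and 97.8 with LPS. In MCAD-/- mice it read 44.8, 50.2, 36.9, 54.3 and 54.9 units with vehicle and 91.4, 89.2, 40.7, 67.7 and 63.5 with LPS. MCAD-/- mouse 3 with LPS read among the vehicle mice, and the highest MCAD-/- vehicle mouse lay just under the lowest wild-type one. LPS raised Per2 1.45-fold in wild type (0.53 ± 0.19, adjusted p = 0.0192) and 1.42-fold in MCAD-/- (0.50 ± 0.19, adjusted p = 0.0255). The MCAD-/- minus wild-type difference was -0.37 ± 0.19 with vehicle (adjusted p = 0.203) and -0.40 ± 0.19 with LPS (adjusted p = 0.143). It was called with vehicle under array weights (-0.41, adjusted p = 0.0348). With LPS it was called under the mean of the 3 probe sets (-0.51, adjusted p = 0.00288) and with the replicate block (adjusted p = 0.049). Only 1 of these 3 probe sets was bright enough to be tested. The others read at most 12.3 and 24.0 units on any array, so that mean is largely made of dim readings. The LPS rise was lost in wild type without LPS mouse 1 (adjusted p = 0.0567) and in MCAD-/- without vehicle mouse 3, LPS mouse 1 or LPS mouse 2 (adjusted p 0.0751 to 0.081). It was lost in both genotypes under further quantile normalization (0.41, adjusted p = 0.0566, and 0.40, adjusted p = 0.0613), and in MCAD-/- under the mean of the 3 probe sets (0.11, adjusted p = 0.387) or with the compared groups alone (adjusted p = 0.0517).

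Per3, the period gene that is dispensable for rhythmicity in mice, fell below the measurable range in every LPS mouse. It read 23.0, 16.6, 19.6, 18.2 and 23.0 units in wild type with vehicle and 9.05, 8.18, 6.36, 5.96 and 4.99 with LPS. MCAD-/- mice read 20.6, 37.3, 24.4, 28.3 and 25.6 units with vehicle and 7.27, 6.33, 7.97, 10.3 and 7.51 with LPS. All 10 vehicle mice were above 16 units and all 10 LPS mice below, so the fall is a bound. It was at least 1.25-fold in wild type and at least 1.67-fold in MCAD-/-, and these bounds were not themselves tested. The fitted log2 changes, which use the readings under 16 units, were -1.56 ± 0.18 (adjusted p = 2.37e-07) and -1.78 ± 0.18 (adjusted p = 3.69e-08). Its genotype difference with vehicle was 0.42 ± 0.18 (adjusted p = 0.109), and it was called under the mean of the probe sets (0.39, adjusted p = 0.0097) and with array weights (0.43, adjusted p = 0.0422). The 5 other Per3 probe sets were dimmer, at most 22.6 units on any array.

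Cry1, a potent transcriptional repressor in the loop, had the smallest unadjusted p of the 7 members in the interaction test. It read 64.9, 82.1, 70.0, 74.7 and 70.7 units in wild type with vehicle and 64.5, 69.0, 60.3, 73.4 and 109 with LPS. The MCAD-/- readings were 80.3, 81.1, 118, 145 and 133 units with vehicle and 71.6, 66.6, 53.8, 93.7 and 43.5 with LPS. The 3 highest of all 20 readings were MCAD-/- vehicle mice 3, 4 and 5, and the lowest was an MCAD-/- LPS mouse. The MCAD-/- LPS mice overlapped their vehicle group in 1 animal. LPS lowered Cry1 1.70-fold in MCAD-/- (-0.76 ± 0.20, adjusted p = 0.00271), and the change in wild type was 0.03 ± 0.20 (adjusted p = 0.919). The difference between these responses was -0.79 ± 0.29 (adjusted p = 0.123), which does not pass the test over all genes. The genotype difference with vehicle, 0.58 ± 0.20, missed the threshold (adjusted p = 0.0572) and passed it on leaving out wild-type LPS mouse 5, MCAD-/- vehicle mouse 1 or 2, or MCAD-/- LPS mouse 4 or 5 (adjusted p 0.0341 to 0.0413). It also passed with the compared groups alone (adjusted p = 0.0373), with array weights (adjusted p = 0.0185) and with 16 units added (adjusted p = 0.0476).

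**Figure D2:**
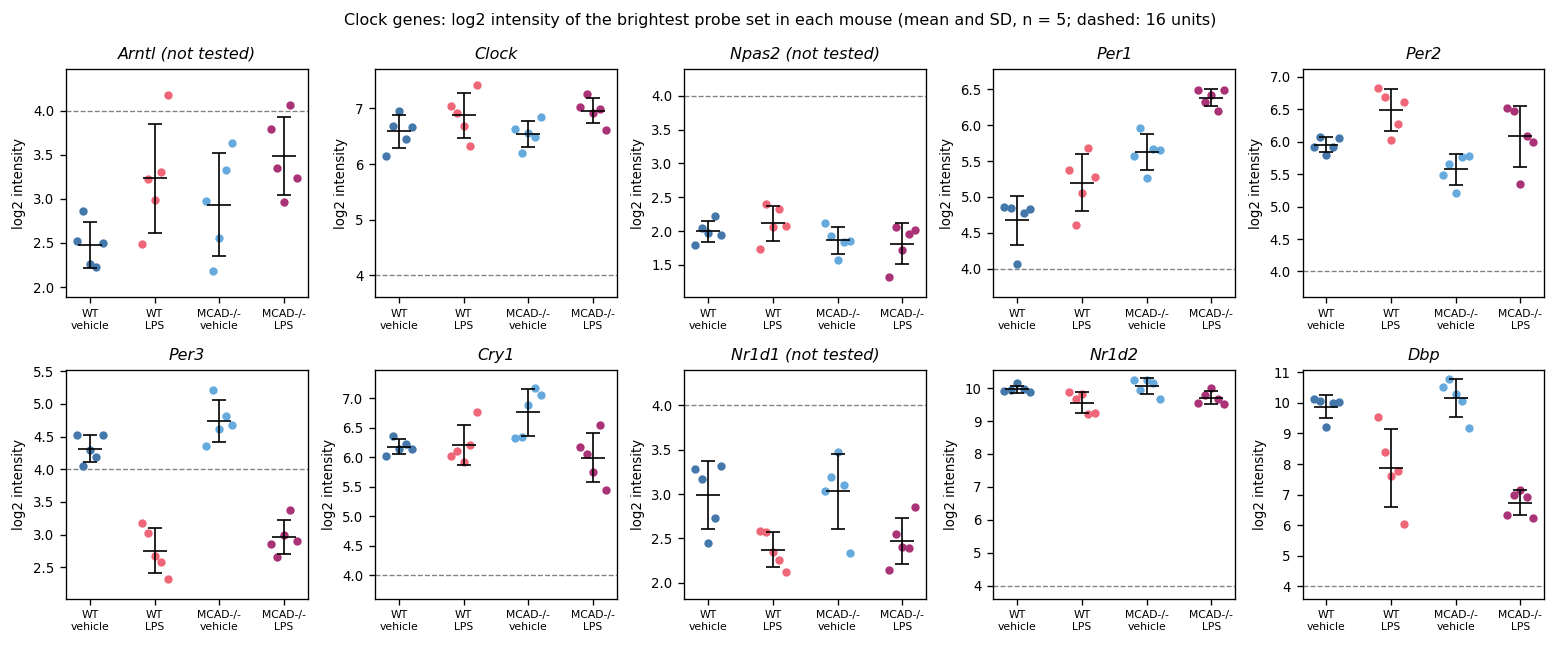
Log2 intensity of each member's brightest probe set (vertical axis) in each of the 20 mice by group (horizontal axis, WT for wild type), with the mean and SD of 5 mice and a dashed line at 16 units, which is 4 on this scale. Per3 crosses the line between vehicle and LPS, Per1 means step up from group to group, Npas2 and Nr1d1 lie under the line, and so does Arntl on all but 2 arrays.

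Of the REV-ERB receptors, Nr1d1 was never above 16 units and was not tested. It read 5.48 to 9.94 units in wild type with vehicle, 4.35 to 5.99 with LPS, 5.07 to 11.1 in MCAD-/- with vehicle and 4.42 to 7.26 with LPS. With the filter removed its log2 change with LPS was -0.62 (adjusted p = 0.0138) in wild type and -0.56 (adjusted p = 0.0243) in MCAD-/-, all under the 16-unit floor, where no fold is given.

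Nr1d2 was well measured and fell by a small amount. It read 968, 976, 1136, 1016 and 938 units in wild type with vehicle and 942, 808, 912, 589.6 and 608 with LPS. In MCAD-/- mice it read 1221, 985, 1208, 1149 and 819 units with vehicle and 751, 891, 1024, 810.0 and 731 with LPS. In wild type only LPS mouse 1 reached into the vehicle range, and in MCAD-/- the groups overlapped. The fall was 1.33-fold in wild type (-0.41 ± 0.15, adjusted p = 0.0193) and 1.27-fold in MCAD-/- (-0.35 ± 0.15, adjusted p = 0.0405). It was lost in wild type without LPS mouse 4 or 5 (adjusted p 0.0615 to 0.0623) and in MCAD-/- without any of 6 mice, vehicle 1, 3 or 4 or LPS 1, 4 or 5 (adjusted p 0.0666 to 0.098). It was also lost in wild type without both arrays of high actin ratio (-0.27, adjusted p = 0.121) and in both genotypes under the mean of the probe sets (adjusted p = 0.0625 and 0.327). A dimmer second Nr1d2 probe set changed by -0.81 (adjusted p = 0.129) and -0.28 (adjusted p = 0.6). The genotype differences were 0.08 ± 0.15 with vehicle (adjusted p = 0.763) and 0.14 ± 0.15 with LPS (adjusted p = 0.539).

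Dbp, the output factor, had the largest fitted LPS decrease of the tested members, where Per3's is only a bound, and the largest within-group SD. It read 1122, 1061, 591, 1011 and 1038 units in wild type with vehicle and 749, 334, 195, 217 and 65.9 with LPS. MCAD-/- mice read 1463, 1749.6, 1241, 1069 and 579 units with vehicle and 80.7, 127, 142, 122 and 75.7 with LPS. The 5 MCAD-/- LPS mice lay together, far below their vehicle group. The wild-type LPS mice were spread over a range that began above the lowest vehicle mouse and ended below every MCAD-/- mouse.

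LPS lowered Dbp 4.03-fold in wild type (log2 -2.01 ± 0.44, adjusted p = 0.000483) and 10.8-fold in MCAD-/- (-3.43 ± 0.44, adjusted p = 1.12e-06). The difference between these responses was -1.42 ± 0.62 and did not pass the test (adjusted p = 0.202). With LPS, the MCAD-/- minus wild-type difference was -1.14 ± 0.44 (adjusted p = 0.0698). Without wild-type LPS mouse 5 the difference with LPS was -1.60 (adjusted p = 0.0035) and that between the responses -1.88 (adjusted p = 0.0312). With all mice kept, the difference with LPS was also called with array weights (-1.36, adjusted p = 0.0191), the replicate block (adjusted p = 0.0381) and the mean of the probe sets (-1.43, adjusted p = 0.0404). On the other Dbp probe set the levels were 163 to 366 units in wild type with vehicle, 10.9 to 177 with LPS, 159 to 520 in MCAD-/- with vehicle and 7.98 to 19.6 with LPS. There the LPS changes were -2.76 (adjusted p = 0.000155) and -4.68 (adjusted p = 2.9e-07). The genotype difference with LPS was called (-1.71 ± 0.52, adjusted p = 0.0272), and the difference between responses, -1.92 ± 0.74, was not (adjusted p = 0.163).

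Dbp's within-group SD, 0.76 on the log2 scale, stood at percentile 98.9 of the 8774 tested genes, whose median was 0.255. The other tested members ran from 0.23 (Nr1d2, percentile 40.9) to 0.34 (Cry1, percentile 75.7). In the wild-type LPS group Dbp ranged from 65.9 to 749 units and its SD was 1.28, against 0.61 in MCAD-/- with vehicle, 0.41 in MCAD-/- with LPS and 0.38 in wild type with vehicle. Wild-type LPS mouse 5, the lowest for Dbp, was the highest of its group for Clock, Cry1 and Arntl. Wild-type LPS mouse 1, the highest for Dbp, was also the highest of its group for Per2, Per3, Nr1d1 and Nr1d2. In that group Per3 and Nr1d1 lay under 16 units in every mouse, and Arntl in all but mouse 5. Their order is thus one of dim readings.

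**Figure D3:**
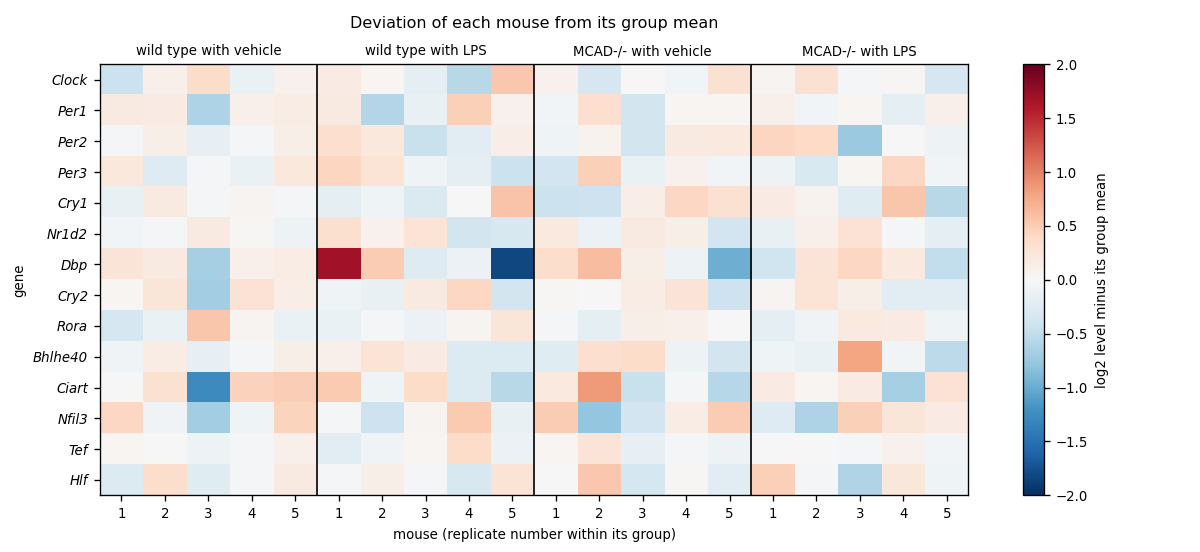
Each mouse's log2 level minus the mean of its group (colour scale, limited to 2 either way) for the 7 tested clock genes and 7 tested partners (vertical axis) across the 20 mice (horizontal axis, replicate number within its group). The deepest red and blue cells are Dbp in wild-type LPS mice 1 and 5, and wild-type vehicle mouse 3 is low for Per1, Dbp, Cry2, Ciart and Nfil3.

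Markers of other cells moved with LPS too. Neutrophil markers summed to 43.6 to 114 units in wild type with vehicle and 1851 to 3908 with LPS, and to 40.2 to 212 and 2700 to 3221 units in MCAD-/-. All 3 tested neutrophil markers rose in each genotype, and Mpo, Elane, Camp and Csf3r stayed under 16 units in every group. Of 9 macrophage markers, 6 fell and 1 rose in wild type (937 to 1721 units with vehicle, 509 to 1067 with LPS), and 8 fell and 1 rose in MCAD-/- (1692 to 2402 against 591 to 1208), with Vsig4 under 16 units in every LPS mouse. Endothelial markers went 4 higher and 1 lower in wild type and 2 higher and 4 lower in MCAD-/-, and stellate markers 2 higher and 1 lower against 0 higher and 4 lower (stellate sums with LPS 700.4 to 2084 and 1788 to 2226 units). Hepatocyte markers fell in 5 of 7 cases in each genotype. LPS raised 40.0% and lowered 24.0% of all tested genes in wild type, and 38.1% and 27.6% in MCAD-/-. Ngp and Marco passed the filter only through the LPS groups, and Vsig4 only through the vehicle groups. Their place among the tested genes is thus no support for their changes. The part of these marker shifts in the clock gene changes was not tested.

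The loop's other genes were taken from a list, of which 9 had a probe set and 7 were tested. Arntl2 and Bhlhe41 never rose above 16 units. LPS lowered 3 of the 7 in wild type (Hlf, Tef, Rora) and raised 0, and in MCAD-/- it lowered 4 (Tef, Hlf, Ciart, Rora) and raised 1 (Nfil3). Of all tested genes, LPS lowered 24.0% and raised 40.0% in wild type, and lowered 27.6% and raised 38.1% in MCAD-/-. The partners' median log2 change was -0.45 and -0.33, against the medians of all tested genes given above. Between genotypes 0 of 7 differed with vehicle by limma (2 at an unadjusted p under 0.05, Rora and Tef) and 2 were higher in MCAD-/- with LPS (Rora and Bhlhe40), with medians of 0.24 and 0.10. Of all tested genes, 16.2% differed with vehicle, and with LPS 8.75% were higher and 11.8% lower. The interaction called 0 of 7, against 4.11% of all tested genes (1 of the 7 at an unadjusted p under 0.05, Bhlhe40), with a median of 0.12.

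Dbp's closest relatives fell with it. Tef read 387 to 443 units in wild type with vehicle and 215 to 319 with LPS, and 435 to 582 against 254 to 280.4 in MCAD-/-. Hlf read 103 to 158 units against 33.9 to 51.1 in wild type, and 79.7 to 148 against 24.9 to 53.0 in MCAD-/-. For both genes no LPS mouse reached the vehicle range of its genotype. Tef fell 1.68-fold (-0.74 ± 0.10, adjusted p = 3.73e-06) and 1.84-fold (-0.88 ± 0.10, adjusted p = 3.99e-07), and Hlf 2.92-fold (-1.55 ± 0.19, adjusted p = 8.46e-07) and 2.68-fold (-1.42 ± 0.19, adjusted p = 2.29e-06), in wild type and MCAD-/- respectively. Tef was steady within groups (SD 0.14, percentile 10.2 of tested genes). A dimmer second Tef probe set changed by -0.07 and -0.13 and was not called, while the second Hlf probe set changed by -1.69 and -1.43 and was.

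Nfil3, the repressor that opposes these factors at D-boxes, read 97.3 to 214 units in wild type with vehicle and 137 to 261 with LPS, which overlap widely. The MCAD-/- readings were 99.8 to 243 units with vehicle and 198 to 421 with LPS, so that the upper LPS readings exceeded every vehicle mouse. It rose 1.78-fold with LPS in MCAD-/- (0.83 ± 0.27, adjusted p = 0.0104), and the change in wild type was 0.21 ± 0.27 (adjusted p = 0.512). The difference between these changes was 0.63 ± 0.38 (adjusted p = 0.377). With LPS the genotype difference of 0.74 ± 0.27 missed the threshold (adjusted p = 0.0551), and it passed on leaving out any of 4 mice, wild-type vehicle 3, wild-type LPS 4, MCAD-/- vehicle 2 or MCAD-/- LPS 2 (adjusted p 0.0271 to 0.0394).

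Rora, which activates Arntl through the element that the REV-ERBs occupy, read 356 to 655 units in wild type with vehicle and 260.4 to 337 with LPS. In MCAD-/- mice it read 480.5 to 593 and 381 to 499 units. With LPS the lowest MCAD-/- mouse was above the highest wild-type mouse. LPS lowered Rora 1.57-fold in wild type (-0.65 ± 0.14, adjusted p = 0.000337) and 1.25-fold in MCAD-/- (-0.33 ± 0.14, adjusted p = 0.0417), and with LPS it was 1.53-fold higher in MCAD-/- (0.61 ± 0.14, adjusted p = 0.0032). The fall in MCAD-/- was lost without any of 7 MCAD-/- mice, vehicle 1, 3, 4 or 5 or LPS 1, 2 or 5 (adjusted p 0.0577 to 0.102), and without wild-type vehicle mouse 3 the genotype difference with vehicle was called too (0.42, adjusted p = 0.0133). Of its 6 tested probe sets all 6 fell with LPS in wild type and 4 were higher in MCAD-/- with LPS. The dimmest of the 6 passed the filter only through the vehicle groups, so its place among them is no support for its fall. With vehicle 1 probe set was higher in MCAD-/- (0.66, adjusted p = 0.00165). In MCAD-/- 3 fell and 1 rose (0.37, adjusted p = 0.0167), and 2 of the 6 passed the interaction test (0.71, adjusted p = 0.0337, and 1.27, adjusted p = 0.0354).

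**Figure D4:**
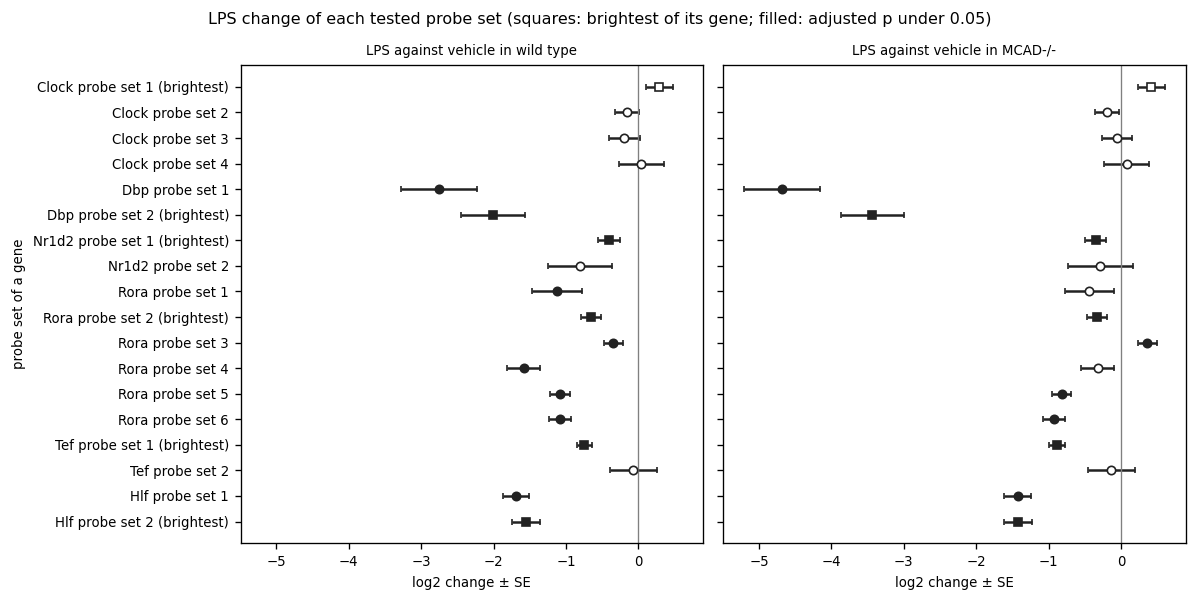
Log2 change with LPS and its standard error (horizontal axis) for every tested probe set of 6 genes with more than 1 tested probe set (vertical axis), in wild type and in MCAD-/-, with p-values adjusted over 14162 probe sets. Both Dbp and both Hlf probe sets fall in each genotype, the 4 Clock probe sets lie on both sides of 0, and 1 Rora probe set is to the right of 0 in MCAD-/- alone.

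Bhlhe40 (DEC1), which competes for E-boxes, read 286 to 355 units in wild type with vehicle and 200.2 to 293 with LPS, and 220.3 to 366 against 265 to 654 in MCAD-/-. The changes with LPS were -0.41 ± 0.20 (adjusted p = 0.0759) and 0.42 ± 0.20 (adjusted p = 0.0622), of opposite sign and neither called, and their difference was 0.83 ± 0.28 (adjusted p = 0.0918). With LPS it was 1.57-fold higher in MCAD-/- than in wild type (0.65 ± 0.20, adjusted p = 0.0229), which was lost without wild-type LPS mouse 4 or 5 or MCAD-/- LPS mouse 3 (adjusted p 0.0544 to 0.065). Without MCAD-/- LPS mouse 3 the wild-type change was called (adjusted p = 0.0267), and without any of 3 MCAD-/- mice (vehicle 2 or 3 or LPS 5) so was the MCAD-/- change (adjusted p 0.0181 to 0.0376).

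Ciart (CHRONO), a repressor of CLOCK and BMAL1 whose window holds 3 copies of CACGTG, read 24.7 to 83.8 units in wild type with vehicle and 29.8 to 62.8 with LPS. MCAD-/- mice read 52.6 to 141 units with vehicle and 25.8 to 50.2 with LPS, without overlap. It fell 1.91-fold there (-0.93 ± 0.32, adjusted p = 0.0151), and the change in wild type was -0.45 ± 0.32 (adjusted p = 0.222). The wild-type change was called without vehicle mouse 3 (-0.77, adjusted p = 0.0176), and the MCAD-/- call was lost without vehicle mouse 2 (-0.72, adjusted p = 0.0543). Cry2, the second cryptochrome, read 66.7 to 165 units over all 20 mice and passed no test, with LPS changes of 0.19 ± 0.18 (adjusted p = 0.369) and -0.04 ± 0.18 (adjusted p = 0.875).

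**Figure D5:**
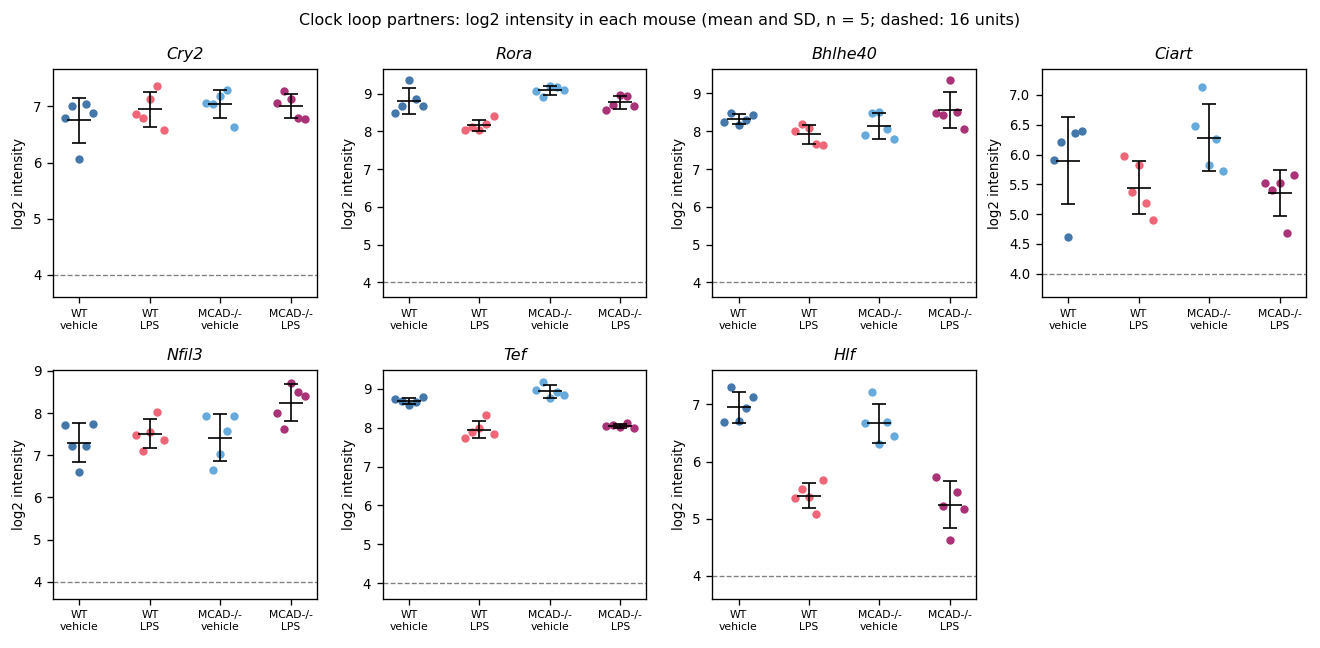
Log2 intensity (vertical axis) of the 7 tested partner genes in each of the 20 mice by group (horizontal axis, WT for wild type), with the mean and SD of 5 mice and a dashed line at 16 units. Tef and Hlf separate into a vehicle and an LPS level in both genotypes, and the Nfil3 and Bhlhe40 means are highest in MCAD-/- with LPS.

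The kinases, ubiquitin ligases and corepressors that set the lifetime and action of PER and CRY were a list of 15, of which 12 were tested. LPS raised 4 and lowered 1 of them in wild type and in MCAD-/- alike, a smaller share than the 64% and 65.7% of all tested genes, with medians of 0.23 and 0.26. In both genotypes the casein kinase genes Csnk1d (0.89, adjusted p = 1.5e-05, and 0.43, adjusted p = 0.0116) and Csnk1a1 (0.52, adjusted p = 0.000428, and 0.56, adjusted p = 0.000186) rose, as did the PER ligase gene Fbxw11 (0.70, adjusted p = 8.91e-07, and 0.55, adjusted p = 1.83e-05). Prkaa2, the α2 subunit of the AMP-activated kinase that marks CRY for degradation, fell (-0.86, adjusted p = 2e-06, and -0.45, adjusted p = 0.00183). Prkaa1, which encodes another subunit of this kinase, was among the 4 raised in wild type and was not called in MCAD-/-. Between genotypes 2 were higher in MCAD-/- with vehicle and 3 with LPS, and the deacetylase gene Sirt1 was in both counts (0.71, adjusted p = 0.00502, and 1.09, adjusted p = 8.24e-05). Csnk1e was in both too (at least 1.42-fold higher with vehicle, adjusted p = 0.00279, and 1.42 on the log2 scale with LPS, adjusted p = 0.00148). Of all tested genes, 9.81% were higher in MCAD-/- with vehicle and 8.75% with LPS. The medians of the list were 0.05 and 0.11, and the interaction called 0 of 12, against 4.11% of all tested genes.

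Genes known to cycle in liver were a list of 15, of which 13 were tested. LPS lowered 9 and raised 3 in wild type (median -1.53) and lowered 8 and raised 3 in MCAD-/- (median -2.26). Of all tested genes it lowered 24.0% and raised 40.0% in wild type, and lowered 27.6% and raised 38.1% in MCAD-/-. Usp2, a deubiquitinase with a large rhythm in liver, fell 17.8-fold in wild type (-4.16, adjusted p = 1.12e-09) and at least 41.7-fold in MCAD-/- (adjusted p = 7.35e-12). It was the only one of the 13 past the interaction test (-1.64, adjusted p = 0.0398), which called 4.11% of all tested genes. All 5 Usp2 readings in MCAD-/- with LPS lay under 16 units. Wee1, a cell cycle kinase driven through E-boxes, fell 5.24-fold (-2.39, adjusted p = 1.36e-08) and at least 2.48-fold (adjusted p = 1.98e-08). Noct, a rhythmic NADPH phosphatase, fell 2.90-fold (-1.53, adjusted p = 2.13e-06) and 3.52-fold (-1.82, adjusted p = 2.26e-07). Against these falls, Nampt, the rate-limiting enzyme of NAD salvage, rose 1.88-fold (0.91, adjusted p = 0.000162) and 2.27-fold (1.19, adjusted p = 8.17e-06).

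Between genotypes 1 of these outputs was higher in MCAD-/- with vehicle (Noct, 1.04, adjusted p = 0.00135) and 3 were lower (Thrsp, Rgs16 and Wee1), with a median of 0.03. With LPS again 1 was higher (Noct, 0.76, adjusted p = 0.0123) and 3 lower (Rgs16, Usp2 and Wee1), with a median of -0.44. The shares of all tested genes were 9.81% higher and 6.39% lower with vehicle, and 8.75% and 11.8% with LPS. Noct was thus higher in MCAD-/- in both settings, as Per1 was.

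Glucocorticoids are an input to Per1, so 8 genes known to respond to them were read beside it, and all 8 were tested. With vehicle 3 were higher in MCAD-/-, Klf9 (0.39, adjusted p = 0.0252), Dusp1 (0.53, adjusted p = 0.0354) and Sgk1, and 0 were lower, beside 9.81% and 6.39% of all tested genes. With LPS 3 were higher, Dusp1 (0.98, adjusted p = 0.000336), Sgk1 (0.73, adjusted p = 0.00235) and Tat (0.48, adjusted p = 0.0328), and 0 were lower, beside 8.75% and 11.8%. LPS itself raised 2 (Sgk1, Mt2) and lowered 4 (Zbtb16, Tsc22d3, Klf9, Tat) in wild type, and raised the same 2 and lowered 3 in MCAD-/- (Klf9, Tsc22d3, Zbtb16). Of all tested genes, LPS raised 40.0% and lowered 24.0% in wild type, and raised 38.1% and lowered 27.6% in MCAD-/-. The list's medians were 0.24 and 0.19 between genotypes and -0.35 and -0.11 for LPS. The interaction called 0 of 8, against 4.11% of all tested genes. Tat is also on the hepatocyte marker list, and corticosterone was not measured in these files.

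By the rule that names the 3 genes with the smallest root mean square difference of centred log2 values over the 20 arrays, Per1 was nearest to Dctn6 (0.25), Crlf2 (0.29) and Ttf1 (0.29), against its own SD of 0.68 over all arrays. The choice fixes that these genes share Per1's group differences, so no more is read from them. Dbp was nearest to A930005H10Rik (0.60), Kcnk5 (0.62) and Pbld1 (0.64), against its own SD of 1.58.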

How the data were processed

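Liver RNA of 20 mice was hybridised to Affymetrix arrays, 1 per mouse. The deposited table gives 1 linear intensity per probe set and array, made by the authors with GCRMA per the submitters' processing notes. That method removes background, brings the arrays to 1 scale and combines probes, so a difference is relative to its whole array, and dim probe sets are drawn towards a floor. The sources used here do not give its version or settings. Precision is limited by the number of mice.

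Values were taken to log2 with no pseudocount. Of 45101 probe sets, 64 were controls, 34945 had 1 gene symbol in the platform's annotation, 932 had several and 9160 were unlisted. Of those with 1 symbol, 34754 matched RefSeq (GRCm38.p6) by gene ID, and no member's symbol changed. No 2 arrays held identical values. Each gene took its probe set of highest mean log2 value. Genes above 16 units on at least 5 arrays were fitted together with limma 3.58.1 (R 4.3.3), as 1 model of 4 group means with moderated variances and Benjamini-Hochberg adjustment over 8774 genes. A call is an adjusted p under 0.05. The 5 comparisons were LPS against vehicle in each genotype, genotype within each treatment, and their interaction. Where all 5 mice of the dimmer group lay under 16 units, a fold is a bound against 16. An adjusted p beside such a bound belongs to the fitted log2 change and does not test the bound. The text names all members, the tested partners, members of the other lists past the test, and the 3 nearest genes for Per1, Dbp, Arntl and Nr1d1.

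The members, the lists of loop partners, regulators, outputs, inputs and cell type markers, and the tests were chosen with earlier results of these data known. The fit was tested on simulated data. Alternatives were the filter, probe set choice, normalization, an added 16 units, array weights, a trended robust prior, groups fitted alone, a replicate block and leaving out each mouse.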

Additional observations from a re-analysis of the deposited data

Results flagged for a closer look

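Among the 40 combinations of 10 members and 4 groups, 2 held a mouse far from the other 4, by Dixon's gap test. Both were wild-type vehicle mouse 3, which also had the highest actin 3′ to 5′ ratio of its group. Its Per1 level was 16.7 units, and the next lowest mouse read 27.4 units, a gap of 0.894 of the group's range on the log2 scale. Its Dbp level was 591 units, and the next lowest mouse read 1011 units, a gap of 0.838 of the range on the log2 scale. By chance, the gap test picks out about 5% of groups. The 40 combinations are not independent, because the members were read in the same mice, and both gaps came from the same mouse. The count of 2 of 40 thus cannot be set against that rate, and whether chance gave these readings was not tested. Whether RNA quality has a part in these readings was not tested.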

How the results depend on the processing

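Over 238 pairs of gene and comparison and 7374 alternative values, 7082 kept their side of the threshold, 221 lost a call and 68 gained one. Another 3 reversed, which means a changed sign where the main or the alternative value was called. Values called in neither could change sign and are counted among the 7082. The reversed values are single probe sets: -0.19 and -0.056 for Clock and 0.37 for Rora, each for LPS in MCAD-/-. Of members, 2 were called between genotypes with vehicle under the mean of probe sets, with 16 units added or with the compared groups alone, and 4 with array weights. With LPS it was 3 under the mean of probe sets or the replicate block and 2 with array weights. Under further quantile normalization 3 members were called for LPS in wild type and 4 in MCAD-/-, and 4 in MCAD-/- under the mean of probe sets. With array weights 2 partners were called between genotypes with vehicle, 5 for LPS in wild type and 1 for the interaction, and without both arrays of high actin ratio 1 partner with vehicle (Rora). The cause of these shifts was not tested. Leaving out each of the 20 mice gave 1 to 2 members called between genotypes with vehicle, 1 to 2 with LPS, 4 to 5 for LPS in wild type, 4 to 7 in MCAD-/- and 0 to 1 for the interaction. For partners these were 0 to 1, 1 to 3, 3 to 4, 4 to 5 and 0. The main fit did not pair mice by replicate number. The 30 same-number pairs of arrays had a median correlation of 0.018 (-0.12 to 0.28, 7 over 0.1). The 120 other pairs had a median of 0.0015 (-0.35 to 0.24, 20 over 0.1), and 7 of 20 arrays correlated best with their own number. These values do not settle whether the numbers pair the mice. The replicate block, beside the 3 members above, gave 6 members for LPS in MCAD-/- and left the other member counts unchanged, and it gave 3 partners between genotypes with LPS, 4 for LPS in wild type and 6 in MCAD-/-. Arntl, Npas2 and Nr1d1 were too dim for a level, and Per3 with LPS only has a bound.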

Other observations

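Genes driven by cAMP signalling and by body temperature, which are other inputs to the clock, were read from fixed lists. Of 6 tested cAMP and CREB targets (7 listed), 1 was higher in MCAD-/- than in wild type with vehicle and 0 were lower. This was Ppargc1a, the coactivator gene induced by fasting (log2 1.75, adjusted p = 0.000867 by limma). With LPS 3 were higher and 0 lower: Ppargc1a (1.83, adjusted p = 0.000493), Crem (0.86, adjusted p = 0.0305) and Pck1, the gluconeogenic carboxykinase gene (0.39, adjusted p = 0.0404). LPS raised 2 and lowered 3 in wild type, and raised 1 and lowered 3 in MCAD-/-. G6pc, which encodes the catalytic subunit of glucose-6-phosphatase, changed by -2.71 (adjusted p = 0.000498) and -4.57 on the log2 scale (adjusted p = 1.35e-06). Of all tested genes, 9.81% were higher and 6.39% lower in MCAD-/- with vehicle, and 8.75% and 11.8% with LPS. LPS raised 40.0% and lowered 24.0% of them in wild type, and raised 38.1% and lowered 27.6% in MCAD-/-. The list's medians were 0.52 and 0.31 between genotypes and -0.29 and -0.25 for LPS. The interaction called 0 of 6, against 4.11% of all tested genes, with a median of 0.03.

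Of 6 tested temperature-sensitive genes (8 listed, 7 with a probe set), 0 differed between genotypes with vehicle, and with LPS 3 were lower in MCAD-/- and 0 higher. These were the heat shock genes Hsph1 (-1.25, adjusted p = 0.000919), Dnajb1 (-0.56, adjusted p = 0.0142) and Hspa1b (-1.53, adjusted p = 0.0154). LPS raised 3 in wild type, among them Hsp90aa1 (1.19, adjusted p = 1.4e-07), and in MCAD-/- it raised Hsp90aa1 (1.46, adjusted p = 7.51e-09) and lowered Hspa8 (-0.32, adjusted p = 0.0159). Of all tested genes, 16.2% differed between genotypes with vehicle, and with LPS 8.75% were higher and 11.8% lower in MCAD-/-. LPS raised 40.0% and lowered 24.0% of them in wild type, and raised 38.1% and lowered 27.6% in MCAD-/-. The list's medians were 0.04 and -0.40 between genotypes and 0.46 and -0.29 for LPS. The interaction called 0 of 6, against 4.11% of all tested genes, with a median of -0.55. Body temperature is not given in the sources used here.

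The genes nearest in pattern to the untested members were Galnt2 (root mean square difference 0.36), Itsn1 (0.38) and Wdr46 (0.38) for Arntl, against its own SD of 0.58 over 20 arrays. For Nr1d1 they were Abtb1 (0.23), Nt5c3 (0.23) and Cd82 (0.24), against its own SD of 0.42. Nr1d1 lay under 16 units on all 20 arrays and Arntl on all but 2, so these are mostly likenesses among dim readings.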
